A study of Mus musculus with 6 samples.

Results

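The 8 genes described here encode the NR4A nuclear receptors (Nr4a1, Nr4a2, Nr4a3), the zinc finger factors EGR1, EGR2 and EGR3 (Egr1, Egr2, Egr3) and the corepressors NAB1 and NAB2 (Nab1, Nab2). They were taken by symbol from 26771 genes listed in the deposited tables of messenger RNA from splenic γδT17 cells, interleukin-17 producers among γδ T cells. All 8 were listed in all 6 libraries. The Induced group held 3 libraries of cells taken on day 8 from splenocyte cultures with IL-1β and IL-23 and purified with a pan T cell isolation kit. The Initial group held 3 libraries of γδT17 cells sorted from spleen with no culture, and the sorting markers are not given in the sources used here. Every mouse was C57BL/6 and TCRβ-/-, so the controls lacked αβ T cells too, and mice A, B and C gave a library to each group. The cells of each group were obtained in a different way, so culture and handling cannot be told apart.

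NR4A and EGR genes are immediate early genes: resting lymphocytes transcribe them at low levels, and signals from the antigen receptor, calcium or stress switch them on fast, before new protein is made. NR4A proteins are orphan receptors that bind DNA without a known classical ligand, and in T cells they restrain effector genes and are known for their place in tolerance and exhaustion. EGR2 and EGR3 are likewise known as brakes on T cell activation, while EGR1 is the family's most widely induced member. NAB1 and NAB2 bind the EGR proteins and repress their targets, and Nab2 is itself an EGR target, which makes a feedback loop.

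Promoter windows are shown first, as a description of the reference sequence. RefSeq windows of 300 bases on GRCm38.p6, from 250 before to 50 after a start site, were matched for 6 of the 8 genes, with 5 windows for Egr2 and 1 for each of the others. Egr1 and Egr3 are named only. Both strands were searched for the half-site of the cAMP response element, bound by CREB and ATF factors (TGACG, which also lies within the full element TGACGTCA), for the EGR site GCGNGGGCG, for the NR4A element NBRE (AAAGGTCA), for the AP-1 pattern TGANTCA, and for the CArG box of SRF and the MEF2 site. In the 3 NR4A windows, capitals mark the response element half-site, on either strand. They lie at chr15:101266596-101266895 (plus strand) for Nr4a1, chr2:57123954-57124253 (minus strand) for Nr4a2 and chr4:48045055-48045354 (plus strand) for Nr4a3.
Nr4a1: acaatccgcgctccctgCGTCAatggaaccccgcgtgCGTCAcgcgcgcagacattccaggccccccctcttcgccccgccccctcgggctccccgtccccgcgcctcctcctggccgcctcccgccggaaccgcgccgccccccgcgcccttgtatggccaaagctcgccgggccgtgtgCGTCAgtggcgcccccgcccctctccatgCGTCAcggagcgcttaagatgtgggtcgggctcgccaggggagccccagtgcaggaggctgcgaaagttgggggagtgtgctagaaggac
Nr4a2: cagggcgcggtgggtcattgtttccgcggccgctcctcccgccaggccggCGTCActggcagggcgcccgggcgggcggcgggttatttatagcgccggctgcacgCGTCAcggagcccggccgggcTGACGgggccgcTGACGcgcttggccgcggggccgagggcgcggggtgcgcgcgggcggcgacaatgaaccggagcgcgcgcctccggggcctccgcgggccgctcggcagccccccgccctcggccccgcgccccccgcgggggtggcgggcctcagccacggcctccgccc
Nr4a3: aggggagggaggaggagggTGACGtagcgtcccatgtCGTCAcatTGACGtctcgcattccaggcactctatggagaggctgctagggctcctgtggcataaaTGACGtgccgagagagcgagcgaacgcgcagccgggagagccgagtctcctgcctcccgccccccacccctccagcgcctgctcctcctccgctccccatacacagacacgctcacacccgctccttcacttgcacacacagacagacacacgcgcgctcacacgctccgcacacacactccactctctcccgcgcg
Each of these 3 windows held 4 half-sites. Of 32851 windows of the same length in the table, 20.8% held at least 1 half-site and 0.231% held at least 4. The full element (1.79% of all windows), the NBRE (1.51%) and the AP-1 pattern (7.81%) had no match in any window of these genes. The windows of Nr4a1 and Nr4a2 also held 1 EGR site each, a motif found in 5.55% of all windows, and that of Nr4a2 held 1 MEF2 site (3.19%).

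The Egr2 window is shown for its CArG box, which the NR4A windows lack, and the Nab1 window for its number of EGR sites. In the Egr2 window (chr10:67537619-67537918, plus strand), capitals mark the CArG box, the SRF element typical of genes that answer to serum. In the Nab1 window (chr1:52500399-52500698, minus strand), capitals mark EGR sites.
Egr2: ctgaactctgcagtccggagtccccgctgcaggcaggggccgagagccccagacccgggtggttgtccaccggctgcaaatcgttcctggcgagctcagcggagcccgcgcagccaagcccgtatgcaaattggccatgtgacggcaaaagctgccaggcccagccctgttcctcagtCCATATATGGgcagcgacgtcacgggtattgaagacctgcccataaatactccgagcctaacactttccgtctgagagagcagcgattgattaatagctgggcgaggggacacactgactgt
Nab1: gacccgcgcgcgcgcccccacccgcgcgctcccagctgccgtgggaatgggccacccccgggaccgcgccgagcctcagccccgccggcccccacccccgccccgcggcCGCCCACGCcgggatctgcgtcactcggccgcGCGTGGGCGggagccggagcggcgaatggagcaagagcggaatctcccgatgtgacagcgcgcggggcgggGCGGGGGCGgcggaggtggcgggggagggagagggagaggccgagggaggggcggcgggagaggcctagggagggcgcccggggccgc
A CArG box occurred in 1.63% of all windows and in 4 of the 5 Egr2 windows, which in part overlap each other. The Egr2 windows that start at 67537619, 67537620 and 67537680 held the same box, and the window that starts at 67537316 held another. The Egr2 window shown also held 2 half-sites of the response element, where 5.01% of all windows held 2 or more. Nab1 held 3 EGR sites, and 0.195% of all windows held 3 or more. The Nab2 window held none of the motifs searched. Such matches describe letters in the reference sequence and were not tested as binding sites, and their part in the levels below was not tested. The shares over all windows were not matched for base content.

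T cell markers were present in every library, and 8 of them summed to 2021 to 2194 FPKM in Induced and 3043 to 3321 FPKM in Initial libraries (4 called lower, 0 higher). Trdc, which encodes the δ chain's constant region, had 357, 349 and 299 FPKM in the Induced libraries of A, B and C and 327, 320 and 335 FPKM in the Initial libraries of A, B and C. Il17a, which encodes interleukin-17A and was not called, had 7.64 to 22.5 FPKM in Induced and 7.34 to 15.3 FPKM in Initial libraries. Markers of other cells moved with the groups. The summed level of 11 macrophage and monocyte markers was 4.41 to 6.06 FPKM in Induced and 577 to 1110 FPKM in Initial libraries, and all 11 were called lower, of which 9 had no Induced library at the filter level of FPKM 1 and so had to be lower. For 8 B cell markers the sums were 98.9 to 160 and 221 to 265 FPKM, with Blk, which is not confined to B cells, higher and 6 of the 7 tested lower. For 6 red cell markers they were 1.17 to 1.63 and 1217 to 1742 FPKM, and all 6 had to be lower in the same way. For 6 NK cell markers they were 20.3 to 93.6 and 127 to 148 FPKM, with 3 of the 4 tested lower. Ncr1 among these 3 had no Induced library at FPKM 1 and had to be lower. Sums for 8 neutrophil markers, 0 of them tested, were 0.553 to 3.19 and 1.11 to 11.2 FPKM, and for 7 dendritic cell markers 6.07 to 10.2 and 11.3 to 16.0 FPKM, with 4 of the 6 tested lower, which again had to be, and 2 higher. Of all these markers, Alas2 (red cells), Clec9a (dendritic cells), Klra8 and Klra4 (NK cells) had no row in the Induced tables and were counted as 0 there. The NR4A and EGR genes are also expressed in macrophages and B cells, and the part of these cells in the results below was not tested. In bulk RNA, fewer cells of a type and less RNA per cell cannot be told apart.

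Of the 8 genes, 7 were tested, and these 7 were called lower in Induced than in Initial cells and 0 higher. Nr4a3 among them entered the test through the Initial libraries alone and had to be lower, which leaves 6 with every Induced library at FPKM 1 or above. Across all 11265 genes tested, 70.4% were called at the adjusted p threshold of 0.05, 33.1% lower and 37.3% higher. A gene entered the test when 3 or more libraries reached an FPKM of 1. The test was limma on log2(FPKM + 1), with Benjamini-Hochberg adjustment over all genes tested, and every fold change and adjusted p below is from that fit, as Induced minus Initial with its standard error (SE). FPKM is a level per transcript length. Egr3 did not reach the level for testing. Its values, and those of the other 7, did not overlap between the groups, which held for 75.4% of the genes tested and, in the lower direction, for 35.4%. The median log2 fold change over the 7 was -3.61, which is the value of Nr4a3 itself, and over all genes tested it was 0.03. On this scale the change of low genes is understated. Across all genes 52.9% of calls were higher in Induced cells, and 66.8% after scaling each library by its CD3 chain and Trdc levels, which moved the median of all genes by 0.21 on the log2 scale. Relative to that scaling the 7 members were still called lower.

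**Figure D1:**
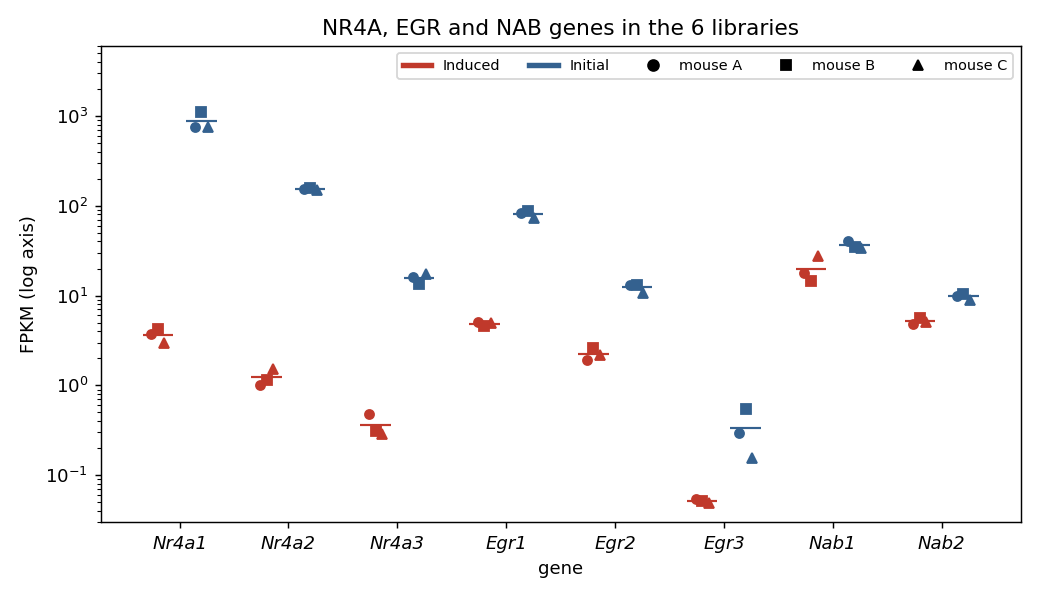
FPKM (log axis) of the 8 genes in each library, Induced in red left of Initial in blue, with a symbol for each mouse and a line at the group mean. The groups are apart for all 8 genes, widely for Nr4a1 (means of 3.65 in Induced and 868 FPKM in Initial cells) and narrowly for Nab1 (19.9 and 36.3 FPKM).

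Nr4a1 (ENSMUSG00000023034; chromosome 15, 101254269 to 101274795, plus strand, GRCm38) encodes NUR77, whose transcription is widely used to report antigen receptor signalling. It had 3.71, 4.24 and 3.00 FPKM in the Induced libraries of A, B and C and 756, 1106 and 743 FPKM in the Initial libraries of A, B and C. Every Induced library was far below every Initial library, and the lowest Initial value was 175 times the highest Induced value. The means were 3.65 ± 0.625 FPKM in Induced and 868 ± 206 FPKM in Initial cells (SD, n = 3 each), 238-fold lower in Induced cells. The log2 fold change was -7.53 (SE 0.17, limma adjusted p = 6.7e-08), and only 3 of the 11265 genes tested had a more negative one, all of them globin genes. By mean level Nr4a1 stood at rank 8567 of the genes tested in Induced cells and at rank 39 in Initial cells.

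Nr4a2 (ENSMUSG00000026826; chromosome 2, 57106830 to 57124003, minus strand), which encodes NURR1, a receptor best known for its need in dopamine neurons, had 1.0002, 1.16 and 1.54 FPKM in the Induced libraries of A, B and C, against 153, 156 and 149 FPKM in the Initial libraries of A, B and C. The Initial libraries lay close together, with a coefficient of variation of 2.50%, where that of Nr4a1 was 23.7%. The means of 1.23 ± 0.275 FPKM in Induced and 153 ± 3.81 FPKM in Initial cells differed 124-fold (log2 fold change -6.11, SE 0.10, limma adjusted p = 1.2e-08), which placed Nr4a2 18th among the falls.

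Nr4a3 (ENSMUSG00000028341; chromosome 4, 48045153 to 48086447, plus strand), which encodes NOR1, had 0.478, 0.309 and 0.288 FPKM in the Induced libraries of A, B and C and 16.3, 13.5 and 17.2 FPKM in the Initial libraries of A, B and C. It passed the filter through the Initial libraries alone, so that it had to be lower, and its values are given as a description. The means were 0.358 ± 0.104 FPKM in Induced and 15.7 ± 1.90 FPKM in Initial cells (SD, n = 3 each), 43.7-fold lower in Induced cells. Its log2 fold change of -3.61 (SE 0.12) depended on the pseudocount for its size. With a pseudocount of 0.1 it was -5.12 and with a pseudocount of 5 it was -1.94.

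**Figure D2:**
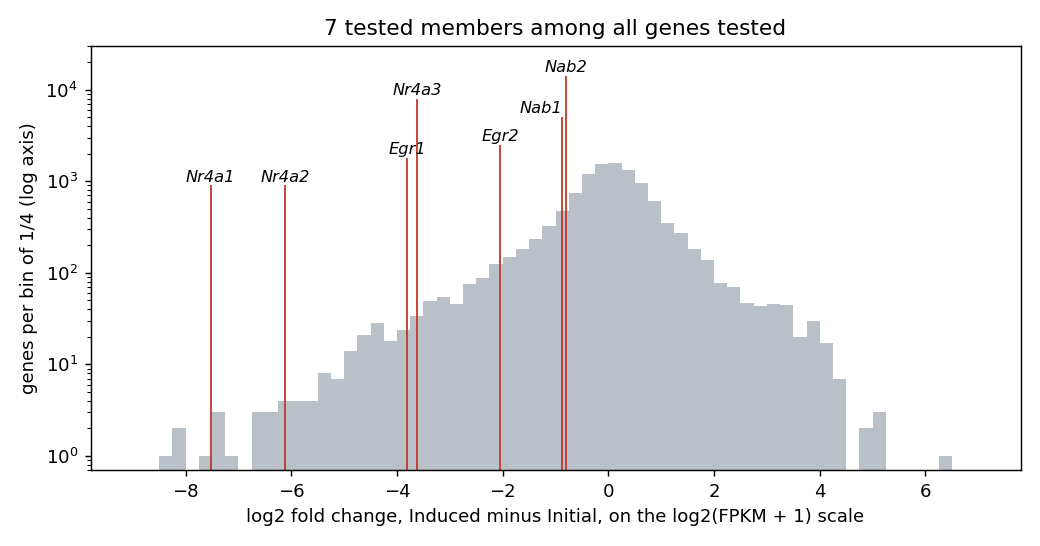
Histogram of the log2 fold changes of the 11265 genes tested (log axis of counts), with red lines at the 7 tested members. Nr4a1 and Nr4a2 lie in the far left tail at -7.53 and -6.11, and Nab1 and Nab2 lie at -0.88 and -0.80.

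Among the EGR factors, Egr1 (ENSMUSG00000038418; chromosome 18, 34859823 to 34864984, plus strand) was the most abundant. It had 5.08, 4.59 and 4.91 FPKM in the Induced libraries of A, B and C, against 83.2, 87.4 and 73.7 FPKM in the Initial libraries of A, B and C. Both groups were tight, with coefficients of variation of 5.13% in Induced and 8.61% in Initial cells. The means of 4.86 ± 0.250 FPKM in Induced and 81.5 ± 7.02 FPKM in Initial cells differed 16.8-fold (log2 fold change -3.81, SE 0.08, limma adjusted p = 4.4e-08).

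Egr2 (ENSMUSG00000037868; chromosome 10, 67535475 to 67542188, plus strand), a regulator needed for myelination as well as for T cell tolerance, had 1.94, 2.60 and 2.16 FPKM in the Induced libraries of A, B and C and 13.1, 13.3 and 10.7 FPKM in the Initial libraries of A, B and C. It was lower in Induced cells in each mouse, 6.79-fold in A, 5.10-fold in B and 4.95-fold in C. The means were 2.23 ± 0.339 FPKM in Induced and 12.4 ± 1.45 FPKM in Initial cells (log2 fold change -2.05, SE 0.12, limma adjusted p = 3.2e-06). Egr1 thus had a larger change than Egr2, and the difference between the genes was not tested.

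Egr3 (ENSMUSG00000033730; chromosome 14, 70077203 to 70082614, plus strand) was near the limit of detection. It had 0.0538, 0.0521 and 0.0490 FPKM in the Induced libraries of A, B and C and 0.293, 0.548 and 0.157 FPKM in the Initial libraries of A, B and C. From the estimated depth and the span given in the tables, these levels stand for at most about 2.91 to 3.17 fragments in Induced and 9.21 to 28.5 in Initial libraries. That span is 2713 bases, shorter than the 4406 exon bases of the gene in the annotation. Without the filter on low values its log2 fold change was -0.33 (SE 0.11) and its limma adjusted p was 0.0539, so that it was not called.

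The corepressor genes changed less. Nab1 (ENSMUSG00000002881; chromosome 1, 52457294 to 52500679, minus strand) had 17.8, 14.6 and 27.5 FPKM in the Induced libraries of A, B and C, against 40.5, 34.5 and 34.0 FPKM in the Initial libraries of A, B and C. Induced library C stood above the other 2 Induced libraries and came close to the Initial range, its value being 1.24-fold below that of Initial library C. The means were 19.9 ± 6.71 FPKM in Induced and 36.3 ± 3.63 FPKM in Initial cells (SD, n = 3 each), and the log2 fold change was -0.88 (SE 0.21, limma adjusted p = 0.00714). Without Induced library C it was -1.12 (adjusted p = 7.1e-05). That library also had the highest sum of NK cell markers among the Induced libraries, at 93.6 FPKM against 33.5 in A and 20.3 in B, and the part of this in the Nab1 level was not tested.

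Nab2 (ENSMUSG00000025402; chromosome 10, 127660918 to 127668568, minus strand) had 4.85, 5.62 and 5.14 FPKM in the Induced libraries of A, B and C and 9.99, 10.4 and 9.03 FPKM in the Initial libraries of A, B and C. The means of 5.20 ± 0.390 FPKM in Induced and 9.81 ± 0.711 FPKM in Initial cells differed 1.89-fold (log2 fold change -0.80, SE 0.09, limma adjusted p = 0.00012). Nab2 shares 40 exon bases with Stat6 and 151 with Nemp1, both on the other strand. Whether reads were counted by strand is not stated in the labels or notes, so its level is uncertain. Stat6 had 54.5 to 63.6 FPKM in Induced and 94.9 to 96.8 FPKM in Initial libraries, and Nemp1 had 4.54 to 5.31 and 1.72 to 2.29 FPKM.

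The order of levels differed between the groups. In Induced cells Nab1 was highest, followed by Nab2, Egr1, Nr4a1, Egr2, Nr4a2, Nr4a3 and Egr3. The ranges of Nab2 and Egr1 overlapped there, as did no other neighbours in this order. In Initial cells the order was Nr4a1, Nr4a2, Egr1, Nab1, Nr4a3, Egr2, Nab2 and Egr3, and the SDs of Nr4a3 and Egr2 met although their values did not overlap. Within the Initial group, library B had the highest level of 6 of the 8 genes and library C the lowest of 7. The sum of macrophage markers in the Initial libraries was also lowest in C, at 577 FPKM, with 1110 in A and 925 in B, and its part in these levels was not tested.

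Family sums show how the balance of these regulators stood. The 3 NR4A genes summed to 5.24 ± 0.446 FPKM in Induced and 1037 ± 207 FPKM in Initial cells, the 3 EGR genes to 7.15 ± 0.0889 and 94.2 ± 8.60 FPKM, and the NAB genes to 25.1 ± 6.58 and 46.2 ± 3.89 FPKM (SD, n = 3 each). The ratio of the EGR sum to the NAB sum was 0.313, 0.359 and 0.218 in Induced libraries A, B and C and 1.91, 2.25 and 1.97 in Initial libraries A, B and C. EGR transcripts were thus below NAB transcripts in every Induced library and above them in every Initial library. Egr1 alone stood at 0.941 ± 0.117 times the level of Nab2 in Induced cells and at 8.30 ± 0.117 times in Initial cells.

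The mix within each family moved as well. Nr4a1 made up 69.3 ± 6.36% of NR4A FPKM in Induced and 83.4 ± 2.88% in Initial cells, and the share of Nr4a3 was 6.87 ± 2.05% and 1.57 ± 0.446%. Of EGR FPKM, Egr1 held 68.1 ± 4.32% in Induced and 86.5 ± 0.554% in Initial cells, with Egr2 at 31.2 ± 4.33% and 13.1 ± 0.472%. The library ranges of these shares did not overlap. The share of Nab1 among NAB transcripts was 78.3 ± 6.04% in Induced and 78.7 ± 1.72% in Initial cells, and its ranges did overlap. These ratios and shares are descriptions within libraries, given with no test.

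**Figure D3:**
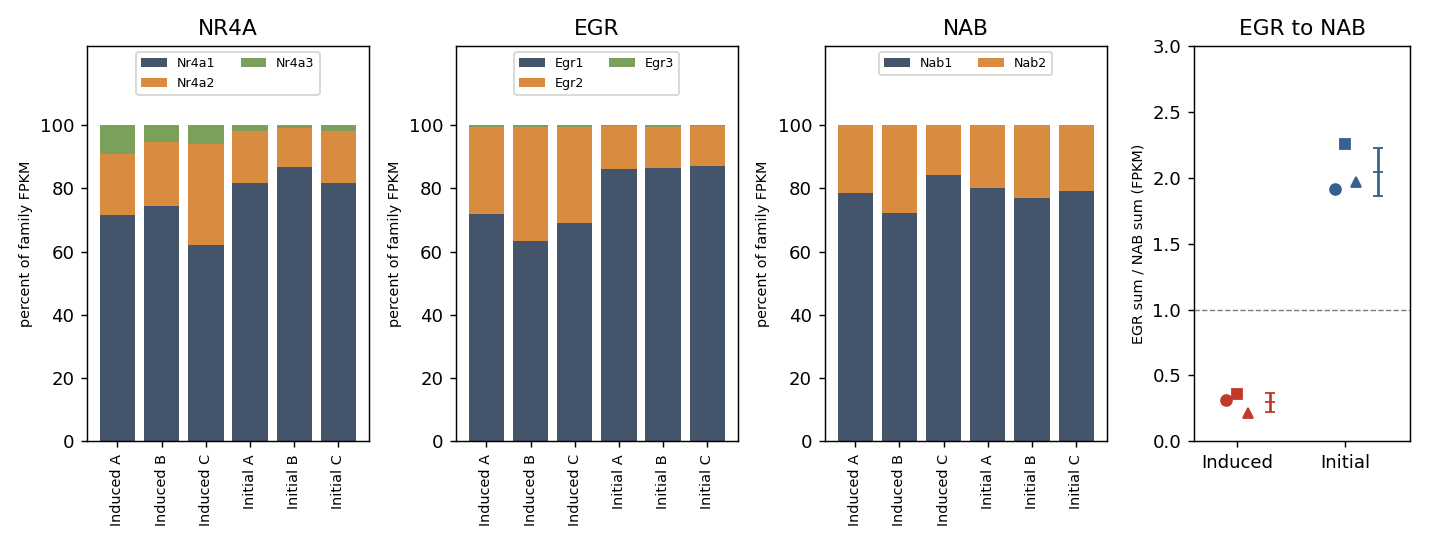
Stacked bars give each gene's percent of its family's summed FPKM in each library, Induced left of Initial. The right panel gives the ratio of the EGR sum to the NAB sum per mouse (circle A, square B, triangle C) with mean and SD, and the Induced libraries lie below 1 (0.218 to 0.359) and the Initial libraries above 1 (1.91 to 2.25).

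Most other immediate early genes were lower too. Of 29 listed genes 27 were tested, of which 25 were called lower (33.1% of all genes were), 0 higher and 2 did not pass, with a median log2 fold change of -3.25. The count and the median hold 5 genes that had no Induced library at FPKM 1 and had to be lower, namely Atf3, Fosb, Klf4, Maff and Rhob, and 4 more that reached that level in some Induced libraries only, Fos among them. The other 18 reached it in every Induced library. Fos, a subunit of AP-1, had 0.780, 1.06 and 0.647 FPKM in the Induced libraries of A, B and C and 297, 366 and 261 FPKM in the Initial libraries of A, B and C (log2 fold change -7.39, SE 0.14). Atf3, a stress-induced factor of the ATF family, had 0.426 to 0.795 FPKM in Induced and 71.1 to 89.7 FPKM in Initial libraries (log2 fold change -5.68). Those that did not pass were Myc, with mean levels of 120 FPKM in Induced and 96.5 FPKM in Initial cells, and Ier3, with 10.5 and 9.27 FPKM. Egr4, the remaining EGR gene, was too low to test, at means of 0.0196 and 0.287 FPKM.

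The route that leads to NR4A and EGR transcription held calls in both directions, at a share near that of all genes. Of 23 genes for SRF and its partners, MEF2, NFAT, calcineurin, CREB and MAP kinase proteins, all tested, 5 were called higher, 11 lower and 7 did not pass, so that 69.6% were called, against 70.4% of all genes, with a median log2 fold change of -0.26. The largest rises were those of Mapk3, the kinase ERK1 (16.8 FPKM in Induced and 5.93 FPKM in Initial cells, log2 fold change 1.36, SE 0.10, limma adjusted p = 7.7e-06), and of the calcium-regulated factor gene Nfatc2 (14.6 and 9.48 FPKM). Mef2c had the largest fall, with 2.94, 2.68 and 0.595 FPKM in the Induced libraries of A, B and C and 14.5, 21.5 and 18.4 FPKM in the Initial libraries of A, B and C. It is also a B cell gene. The B cell and the macrophage and monocyte sums given above were lower in Induced libraries too, and their part in the Mef2c level was not tested. Crem, a CREB family gene whose short product represses, followed with 44.9 and 233 FPKM. Srf itself had 1.08 FPKM in Induced and 1.46 FPKM in Initial cells and did not pass (log2 fold change -0.24, adjusted p = 0.148). The 5 rises became 3 without Initial library A or after quantile normalization, and 8 after scaling by Trdc and CD3 chains.

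**Figure D4:**
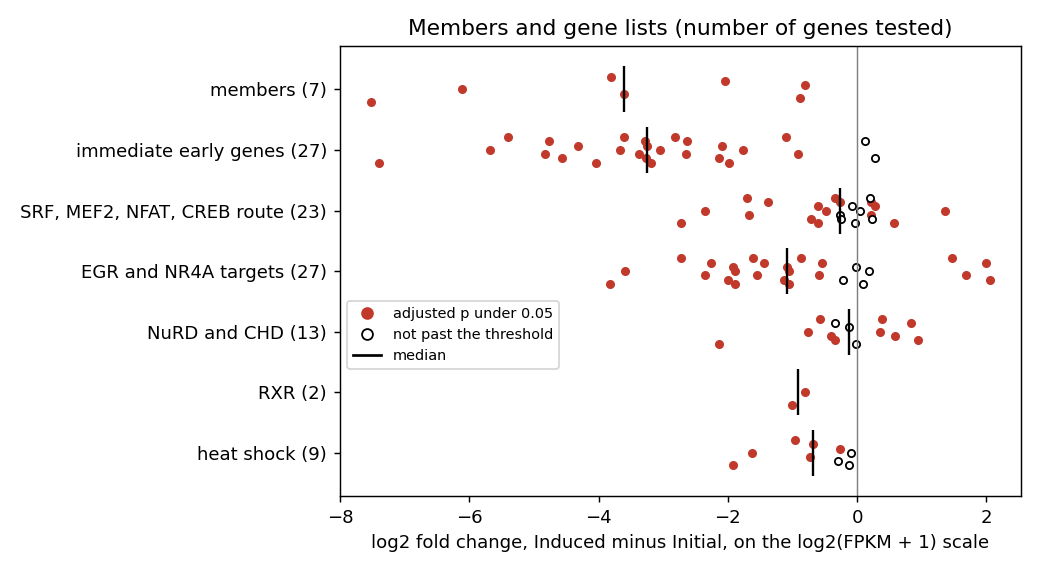
Log2 fold changes of the tested members and of each gene list (number tested in brackets), with filled points past the threshold, open points not past it and a line at the median. The members and the immediate early genes lie to the left (medians of -3.61 and -3.25), and the NuRD list lies around 0 (median -0.12).

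Among 27 genes known as targets of EGR2, EGR3 or NR4A proteins in T cells, all tested, 19 were called lower, 4 higher and 4 did not pass (median log2 fold change -1.08), so that 85.2% were called, against 70.4% of all genes. Among the 19, Tox2 had no Induced library at FPKM 1 and had to be lower. The largest falls were those of Socs3, an inhibitor of cytokine signalling (12.8 FPKM in Induced and 192 FPKM in Initial cells, log2 fold change -3.82, SE 0.16, limma adjusted p = 7.3e-07), and Tox, a nuclear factor of T cell exhaustion (4.07 and 57.0 FPKM). Pdcd1, which encodes PD-1, had 48.9 and 186 FPKM. Among the others called lower were Cblb, Dgka, Dgkz, Itch and Rnf128, with log2 fold changes from -1.99 to -0.54. Ndrg1 (13.6 FPKM in Induced and 2.52 FPKM in Initial cells, log2 fold change 2.05) and Socs1 (211 and 52.7 FPKM) had the largest rises, and the other two genes that rose were the cell cycle inhibitor gene Cdkn1a and the checkpoint receptor gene Havcr2. Tnfrsf9, with 44.2 and 44.6 FPKM, did not pass, and neither did Batf, Zbtb16 and Nrn1. Nrn1 had means of 0.999 FPKM in Induced and 0.884 FPKM in Initial cells. The list was drawn from work on other T cells, and its genes have regulators besides these factors.

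NAB proteins repress through the chromatin remodeller CHD4 and its NuRD complex. All 13 genes of that list were tested, and 5 were called higher, 5 lower and 3 did not pass, so that 76.9% were called, near the 70.4% of all genes. The deacetylase gene Hdac1 (179 FPKM in Induced and 93.0 FPKM in Initial cells, log2 fold change 0.94) and Mbd2 (22.4 and 12.0 FPKM) rose most, and Chd3 (3.41 and 18.3 FPKM, log2 fold change -2.14) and Mta3 (48.8 and 83.6 FPKM) fell most. Chd4 had 11.6 and 15.7 FPKM and was called lower (log2 fold change -0.40, limma adjusted p = 0.00282), a call not made after scaling by CD3 chains and Trdc. NR4A1 and NR4A2 can pair with retinoid X receptors. Rxra (1.55 FPKM in Induced and 4.11 FPKM in Initial cells) and Rxrb (26.2 and 46.6 FPKM) were both called lower, and Rxrg was too low to test. Of 9 heat shock genes, 6 were called lower, 0 higher and 3 did not pass, a called share of 66.7%. The largest falls were those of Dnajb4 (8.84 FPKM in Induced and 36.1 FPKM in Initial cells) and Hspa1a (0.426 and 3.58 FPKM), of which Hspa1a, like Hspa1b, had no Induced library at FPKM 1 and had to be lower.

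The genes whose profiles were nearest to 3 members were found by the Euclidean distance between centred log2(FPKM + 1) values over the 6 libraries. For Nr4a1 they were Fos (distance 0.260), the antibody joining chain gene Jchain (0.692) and the globin gene Hbb-bt (0.769). Jchain had 0.284 to 1.15 FPKM in Induced and 205 to 247 FPKM in Initial libraries. For Egr1 they were Atp1b1 (0.252), a sodium pump subunit gene, Cpq (0.276) and Pkp4 (0.310), and for Nab2 Llgl2 (0.0900), Rasa2 (0.0931), a gene for a RAS inhibitor, and Fam210b (0.0961). With only 2 groups, such distances follow above all the size of the group difference. Hbb-bt, Atp1b1 and Cpq had no Induced library at FPKM 1, so that they had to be lower in Induced cells.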

How the data were processed

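Messenger RNA of 3 Induced and 3 Initial libraries was compared. The deposited values are FPKM per gene, which the authors obtained with Cuffdiff, per the labels' protocols. HISAT2 2.0.5, Cuffdiff 1.3.0 and 2.2.1 and mm9 are named in the submitters' processing notes. Yet 99.94% of the identifiers found in GENCODE M21 (GRCm38) lay on the same chromosome and 90.72% inside the span given, so positions are from that annotation. The deposited spans of Nr4a1 (7947 bases) and Egr3 (2713 bases) are shorter than the positions printed here. That of Nab2 (58064 bases) is longer. A gene with no row counted as 0. Per the labels, mouse letters pair the libraries by animal. Deviations from the group means correlated by 0.0393, 0.0307 and 0.1308 within mice A, B and C, and by -0.1324 to 0.0988 between mice.

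Genes that reached FPKM 1 in 3 or more libraries were tested with limma 3.58.1 in R 4.3.3 on log2(FPKM + 1), two-sided and unblocked, with trend and robust shrinkage. Depth, from the step between low values, was about 20600000 to 23900000 fragments in Induced and 19200000 to 22600000 in Initial libraries. It is rough, since 36.4 to 38.8% of low values lay within 0.1 of a whole number, where chance gives 20%. At FPKM 1 the coefficient of variation from counting alone is then 14.5 to 16.1% for a transcript of 2 kb. On data simulated for this comparison with 11265 genes, 56% of genes changed 1.5-fold, 80% at 2-fold and 100% at 4-fold and 8-fold were recovered. These folds were set on the log2(FPKM + 1) scale, so the shares do not hold for the same folds in FPKM of low genes. Only 50 genes were changed at each fold, and both groups were given the same spread per gene. In the real data 70.4% of genes were called, and the adjusted p depends on that share, so the recovered shares do not give the power of this comparison. Python 3.11.15 made tables and figures. Members and gene lists were chosen with earlier results of these data known. Besides the members, the text names the 2 genes of each list that rose most and the 2 that fell most among those called, and the 3 nearest profiles of Nr4a1, Egr1 and Nab2. Other genes were named after their values were seen. Alternatives tried were a pseudocount of 0.1 or 5, a filter at FPKM 5 or none, 3 other scalings, a replicate block, limma without trend or robust shrinkage, and leaving out each library.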

Additional observations from a re-analysis of the deposited data

How the results depend on the processing

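The 7 tested members kept their direction and their call under all 15 alternatives, where the direction of Nr4a3 was fixed by the filter in those that used it. Their log2 fold changes ran from -7.84 to -6.63 for Nr4a1, -6.86 to -4.66 for Nr4a2, -5.12 to -1.94 for Nr4a3, -4.04 to -3.13 for Egr1, -2.42 to -1.26 for Egr2, -1.12 to -0.66 for Nab1 and -0.90 to -0.54 for Nab2, and the largest adjusted p was 0.0347, for Nab1 after scaling by CD3 chains and Trdc. With the replicate block, the mouse as a paired term, the adjusted p of Nab1 was 0.0129 with the same log2 fold change of -0.88, and no call of a member changed. The count of route genes called higher, 5, was 3 after quantile normalization and 8 with the CD3 and Trdc scaling, and it ran from 3 to 5 when each library was left out. With that scaling 3 NuRD genes were called lower, in place of 5. With the filter at FPKM 5, 1 retinoid X receptor gene was called lower in place of 2, because Rxra was not tested there. The list genes taken by the naming rule, and the nearest profiles, kept their calls in each alternative in which they were tested. Among those named, Atf3, Hspa1a, Hbb-bt, Atp1b1, Cpq, Dusp4 and Slc40a1 had no Induced library at FPKM 1. Their direction was fixed by the filter in the alternatives that used it. Chd4, named outside that rule, lost its call with the CD3 and Trdc scaling. The cause of the other shifts was not tested. Counting error limits Egr3 most, since its Induced levels rest on about 3 fragments.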

Other observations

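Profiles nearest to the members outside the naming rule, looked up after the values were seen, included signalling inhibitors. For Nr4a3 the nearest was Dusp4, a phosphatase that switches off MAP kinases, with 0.569, 0.295 and 0.379 FPKM in the Induced libraries of A, B and C and 14.8, 14.3 and 17.5 FPKM in the Initial libraries of A, B and C. Dusp4 passed the filter through the Initial libraries alone and so had to be lower. As a description, its level was 37.5-fold lower by means in Induced cells. The next was Ifrd1 (15.8 to 16.5 FPKM in Induced and 181 to 202 FPKM in Initial libraries), and the third was the clock gene Per1 (0.691 to 1.17 and 20.99 to 26.9 FPKM). For Nr4a2 the nearest was Rgs2, a regulator of G protein signalling, with 4.01 to 4.39 FPKM in Induced and 414 to 494 FPKM in Initial libraries, followed by Atf3 and by the iron exporter gene Slc40a1 (0.0724 to 0.129 and 55.1 to 102 FPKM). Atf3 and Slc40a1 had no Induced library at FPKM 1 and had to be lower too. The profile of Nab1 was nearest to that of Dse, which shared its high value in Induced library C, at 12.1 FPKM against 7.41 in A and 5.90 in B, with 14.9 to 16.4 FPKM in Initial libraries. Cblb, a ubiquitin ligase gene of T cell tolerance and the third nearest to Nab1, had 11.7 FPKM in Induced library C, against 8.35 in A and 7.16 in B, and 15.1 to 18.6 FPKM in Initial libraries.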
